A study of Mus musculus with 12 samples.

Results

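Regulatory T cells that carried TGF-beta on their surface (Treg) were compared with encephalitogenic T cells (EncT) by genome-wide expression arrays. The members were the 3 arrays titled Treg without FoxA1 in the title and the 3 arrays titled as encephalitogenic, 6 of the 12 Affymetrix Mouse430_2 arrays of the series. All cells came from C57BL/10.RIII mice, and EncT were labelled CD4+ while Treg were labelled CD4+,TGFbeta+. Another group, nFoxA1Treg, was labelled CD4hi,PD-L1hi, and its titles say neuron induced where its cell type field says natural; it was used only for a direct comparison with Treg. The 3 remaining arrays were left out. The labels give the cells by surface marker alone, with no organ, antigen, culture, age or pooling. They also do not tell whether replicates are separate animals, so every p-value measures the spread among these samples, which may be technical.

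Encephalitogenic T cells are CD4 T cells that recognise myelin, enter the brain and spinal cord and cause experimental autoimmune encephalomyelitis, which is studied in mice as a model of multiple sclerosis; they act through cytokines such as GM-CSF, TNF, interferon gamma and interleukin 17. Regulatory T cells restrain such responses. The best known kind depends on the transcription factor Foxp3, uses surface receptors such as CTLA-4, and can hold latent TGF-beta on its membrane or release the active cytokine, which signals through the receptors Tgfbr1 and Tgfbr2 to Smad proteins. Activated T cells of either kind take up more amino acids and glucose, build ribosomes and divide, and quiescent T cells hold these programmes down.

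Levels are given as log2(value + 16), where value is the deposited signal on a linear scale, after quantile normalization of the 6 arrays. The floor of this scale is 4, and probe sets with a mean under 5.054 (the lower 40%) were not tested. Differences are Treg minus EncT on that scale, so that folds of dim genes are understated. A gene is said to have risen or fallen only where limma gave an adjusted p under 0.05 over all 12493 genes tested. By that rule 3.01% of all genes rose and 6.15% fell. The 3 Treg and 3 EncT values did not overlap in 4185 genes (33.5%), so separate groups alone were common. Bulk RNA cannot tell a change in transcript per cell from a change in how many cells of a kind were present, and this holds for every gene below.

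The genes behind the labels were examined first. Cd4 was at 10.58, 10.60 and 10.61 on the EncT arrays and at 10.38, 10.40 and 10.48 on the Treg arrays, a difference of -0.17 that did not pass the test (adjusted p = 0.0572). Cd3e, a chain of the T cell receptor complex, was likewise bright on all 6 arrays (10.58 to 11.001). Foxp3 was near the floor in both groups, at 4.60, 4.43 and 4.08 in EncT and 4.60, 4.40 and 4.59 in Treg, below the level needed for testing. The defining transcription factor of the labelled cell type was therefore not measurable above the filter on these arrays. Foxa1, the factor in the series title, was also below the filter, at 4.0, 4.0 and 4.09 in EncT and 4.55, 4.17 and 4.38 in Treg. Xist, made by the inactive X chromosome of females, was between 10.62 and 11.74 on the 6 arrays, and the Y-linked Eif2s3y was below the filter on average (4.17 to 4.75), so both groups held female RNA.

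Tgfb1, which encodes the cytokine of the Treg label, was at 9.66, 10.19 and 9.90 in EncT and 9.83, 9.88 and 10.03 in Treg, with overlapping groups and a difference of -0.00 (SE 0.118, adjusted p = 0.998). Of 24 tested ligands, receptors and Smads, 0 rose and 3 fell (12.5%, against 6.15% of all genes). Tgfbr2, the ligand-binding receptor, read 11.01, 11.20 and 11.05 in EncT against 10.81, 10.83 and 10.77 in Treg (-0.28, adjusted p = 0.0230). The activin receptor Acvr1b (-0.33, with a second probe set not called at 0.04) and the Smad corepressor Tgif1 (-0.42) were the other falls. The signalling receptor Tgfbr1 was level (-0.02, adjusted p = 0.880). With the mean of kept probe sets the list had 1 fall. The 3 falls were 5, with 1 rise, without EncT replicate 2, 1 without Treg replicate 3, and 0 without EncT replicate 3, Treg replicate 1 or Treg replicate 2. Of 14 tested TGF-beta target genes 0 were called by limma (median 0.01). This count rested on EncT replicate 2, without which 5 rose and 2 fell (median 0.19), and with array weights 4 rose and 2 fell. Smad7, the feedback inhibitor, overlapped between the groups (7.01, 7.62 and 6.87 against 7.55, 7.29 and 7.01). Itgae, the integrin chain CD103 induced by TGF-beta, was at 8.48, 8.59 and 8.17 in Treg, but in EncT it ran from 6.15 and 6.41 to 9.10 on replicate 2, and the difference of 1.20 did not pass (adjusted p = 0.265).

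Among 27 tested Treg identity genes 2 rose (7.41%) and 3 fell (11.1%), against 3.01% and 6.15% of all genes. The median difference was -0.07 against -0.0033 over all genes. Without EncT replicate 2 the counts were 8 and 5, without EncT replicate 1 they were 3 and 5, and without Treg replicate 1, 2 or 3 they were 2 and 1, 0 and 0, and 2 and 0. Ctla4, the inhibitory receptor that captures costimulatory ligands, was at 10.03, 9.80 and 10.14 in EncT and 10.61, 10.68 and 10.63 in Treg, a 1.57-fold rise (0.65, SE 0.0816, adjusted p = 0.00492). Every Treg array lay above every EncT array. The other rise was Rgs1, a brake on chemokine receptor signalling. Prdm1, the factor Blimp-1 of effector T cells, fell from 9.18, 8.79 and 9.03 to 8.41, 8.40 and 8.39 (adjusted p = 0.00897). Ikzf4 (-0.43), an Ikaros family factor, and Ebi3 (-0.55), a subunit of interleukin 35, also fell. Il2ra, the interleukin 2 receptor alpha chain, spanned 8.41 to 9.15 in EncT and 8.65 to 8.75 in Treg, and Ikzf2 (Helios) was at -0.33 (adjusted p = 0.201). Of 22 inhibitory receptors and adenosine enzymes, Ctla4 was the 1 rise and Vsir (VISTA, -0.31) the 1 fall. At 4.55% each, these counts were near the shares over all genes. Cd274, which encodes PD-L1, was at -0.29 (adjusted p = 0.0634) and Pdcd1 at 0.16.

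**Figure D1:**
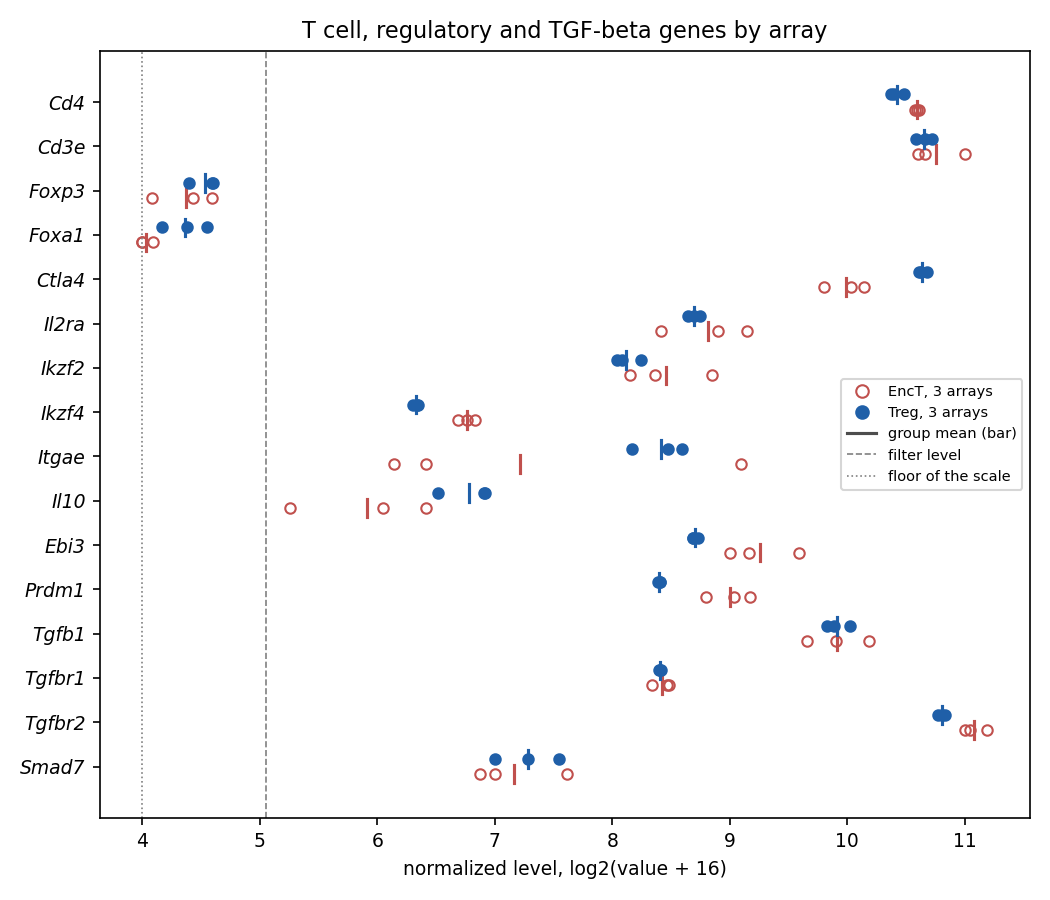
Normalized level, log2(value + 16), of 16 T cell, regulatory and TGF-beta genes on the 3 EncT (open) and 3 Treg (filled) arrays, with the group mean as a bar, the filter level dashed and the floor dotted. Foxp3 and Foxa1 lie between the floor and the filter level in both groups, Ctla4 is higher on all 3 Treg arrays, and Tgfb1 overlaps.

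Over all genes, limma called 1144 of 12493 (9.16%), 376 higher (3.01%) and 768 lower in Treg (6.15%), and 3458 had an unadjusted p under 0.05. Most changes were modest, with 10 genes at least 2-fold higher (0.08%) and 30 at least 2-fold lower (0.24%). EncT arrays varied more among themselves than Treg arrays, with a median SD over genes of 0.112 against 0.0739. Of the 768 lower genes, EncT replicate 1 was the array farthest from Treg in 441 and EncT replicate 2 the nearest in 429, and of the 376 higher genes they were so in 248 and 222. The count rose to 2406 without EncT replicate 2 and was 345 without EncT replicate 3, 255 without Treg replicate 1, 71 without Treg replicate 2 and 155 without Treg replicate 3. With the replicate number as a block it was 1660, of which 629 higher, and 1124 of the 1144 calls were kept.

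Transthyretin, the thyroxine and retinol carrier made in liver and choroid plexus, showed the largest rise. Ttr was at 4.46, 4.36 and 4.56 in EncT, close to the floor, and at 7.97, 8.60 and 8.14 in Treg, a difference of 3.78 (SE 0.153, adjusted p = 1.25e-05). Its other probe sets differed by less: 1 passed the test at 1.96, 1 did not pass at 0.33, and 1 was below the filter at 1.80. The names of the 3 sets with the larger differences mark them as sets whose probes can match several transcripts. Nrep, first described in regenerating neurons, read 4.03, 4.27 and 4.27 in EncT against 6.44, 6.30 and 6.96 in Treg (2.38, adjusted p = 0.000338). Fos, an AP-1 subunit induced within minutes of stimulation, read 4.49, 5.17 and 4.59 against 7.26, 6.96 and 7.05 (2.34, adjusted p = 0.000373). EncT lay mostly below the filter level for these genes. Separate groups were a condition for a place among the largest rises and falls.

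Some rises were in genes well above the floor in both groups. Dtl, the substrate receptor of an E3 ligase that destroys replication licensing factors in S phase, was at 7.70, 7.96 and 7.84 in EncT and 9.60, 9.59 and 9.65 in Treg (3.43-fold, adjusted p = 1.25e-05). Its 5 other probe sets were called the same way, at 1.79, 1.25, 1.25, 0.51 and 0.51. When any 1 Treg array was left out, a set with one of the smaller differences became the brightest and the call was lost (0.49 to 0.53, adjusted p = 0.0702 to 0.0948). With the first set kept, an alternative chosen after the data were seen, the difference was then 1.76 to 1.78 and passed each time (limma, adjusted p = 0.000531 to 0.000806 over probe sets). Cox7c, a small subunit of cytochrome c oxidase, was at 6.46, 6.5 and 6.47 against 7.61, 7.54 and 7.58 (1.10, adjusted p = 0.000308). Its other probe set was called the same way (0.72). Cox7c is not in the respiratory chain list, where 0 of 35 tested genes were called (median 0.07). Further rises were the chemokine Cxcl10 (1.70), the insulin receptor substrate Irs2 (1.12), Rgs1 (1.09), the MAP kinase phosphatase Dusp1 (0.92) and the matrix protease stromelysin, Mmp3 (0.92). Cxcl10 and Mmp3 were under the filter level on all 3 EncT arrays, at 4.83, 4.65 and 4.93 and at 4.66, 4.67 and 4.60.

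The largest fall was in Hbb-b2, a beta globin gene of red cells, at 8.99, 9.22 and 9.79 in EncT and 7.85, 6.32 and 7.19 in Treg (-2.22, adjusted p = 0.00897). Of the 12 largest falls 3 are genes of myeloid cells: the fungal glucan receptor Clec7a (6.45, 7.23 and 6.59 against 5.40, 4.95 and 4.86), the mycobacterial lipid receptor Clec4e (-1.35) and the macrophage elastase Mmp12 (-1.59). Clec7a lay below the filter level on Treg replicates 2 and 3. Clec4e and Mmp12 passed the filter in 13 of 18 alternatives each. Ier3, an early response gene that modulates survival, fell from 9.05, 8.98 and 9.40 to 7.64, 7.55 and 7.26 (-1.66, adjusted p = 0.000399). Neat1, the RNA scaffold of paraspeckles, fell by 1.63 on the probe set used, and a second probe set was not called. Aldoc (-1.81), Bnip3 (-1.41) and Slc16a3 (-1.34), a glycolytic enzyme, a mitophagy receptor and a lactate exporter, are described with their lists below. The sialyltransferase St3gal6 (-1.48), the interferon-inducible Ifit1bl1 (-1.33) and Tcp11l2 (-1.29) completed the set.

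**Figure D2:**
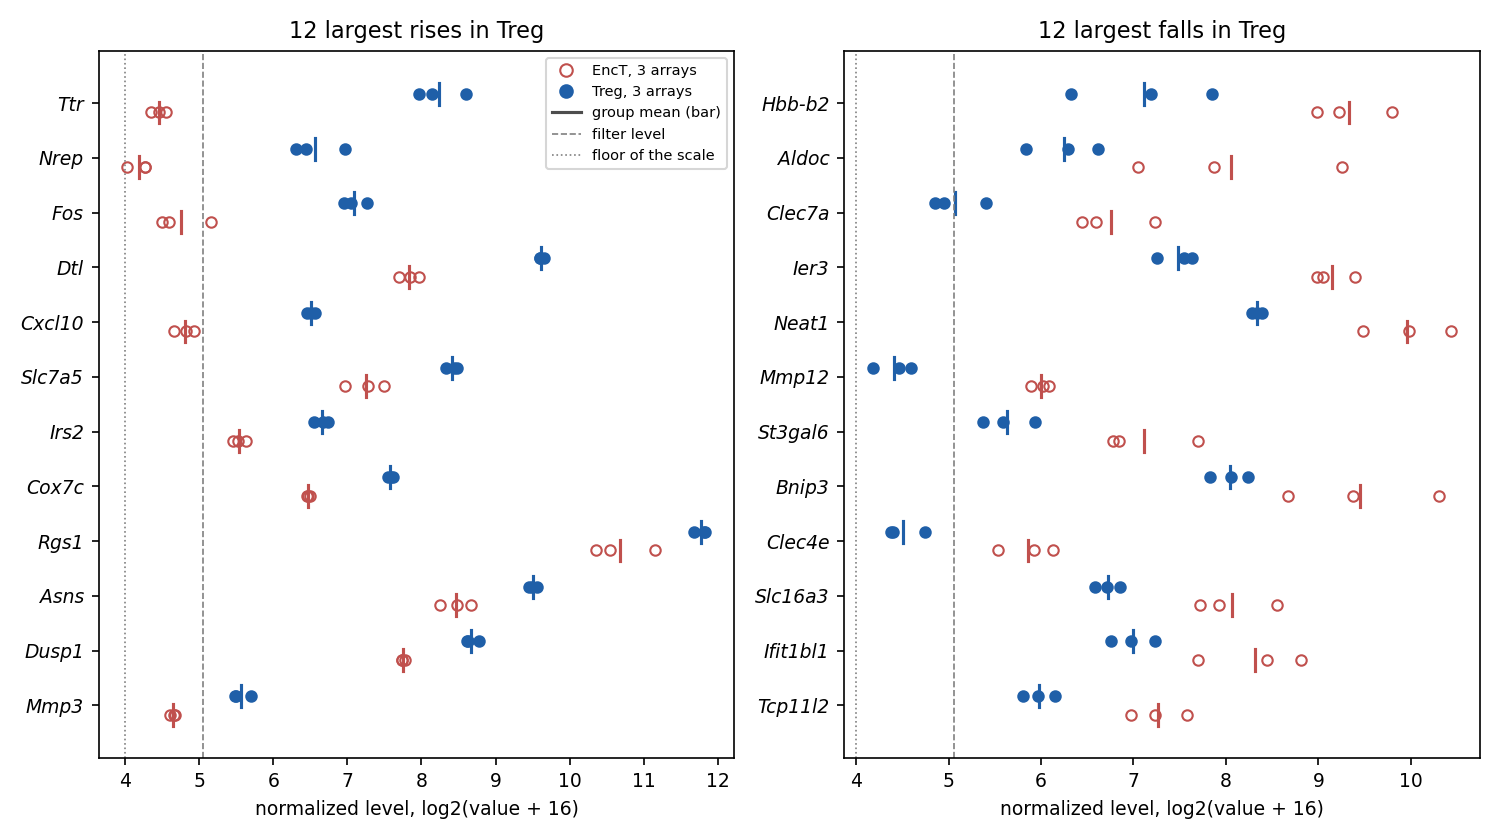
Normalized level, log2(value + 16), of the 12 largest rises (left) and 12 largest falls (right) among called genes without overlap, on the 3 EncT (open) and 3 Treg (filled) arrays, with group means as bars. Ttr, Nrep, Fos, Cxcl10 and Mmp3 start near the floor in EncT, whereas Dtl and Asns are well above it in both groups; Aldoc and Bnip3 spread over more than 1 log2 unit among the EncT arrays.

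Genes of amino acid supply were among the rises in Treg. Many of them are read by ATF4, a transcription factor translated when amino acids run short or the endoplasmic reticulum is stressed; with C/EBP partners it binds the amino acid response element, TGATGNAAN on either strand. Promoters from 250 bases before to 50 after the start site were taken from RefSeq on GRCm38.p6, and 2 rising members whose windows hold that element are shown, with the match in capitals. Asns lies on the minus strand at chr6:7693160-7693459 with the match 23 bases before the start, and Chac1 on the plus strand at chr2:119350992-119351291 with the match in reverse orientation 194 bases before it.
Asns: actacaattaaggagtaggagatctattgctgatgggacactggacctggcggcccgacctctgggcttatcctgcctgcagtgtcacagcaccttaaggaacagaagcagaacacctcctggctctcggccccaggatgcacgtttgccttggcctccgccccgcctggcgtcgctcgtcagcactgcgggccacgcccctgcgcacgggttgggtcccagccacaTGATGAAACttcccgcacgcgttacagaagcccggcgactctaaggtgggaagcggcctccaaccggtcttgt
Chac1: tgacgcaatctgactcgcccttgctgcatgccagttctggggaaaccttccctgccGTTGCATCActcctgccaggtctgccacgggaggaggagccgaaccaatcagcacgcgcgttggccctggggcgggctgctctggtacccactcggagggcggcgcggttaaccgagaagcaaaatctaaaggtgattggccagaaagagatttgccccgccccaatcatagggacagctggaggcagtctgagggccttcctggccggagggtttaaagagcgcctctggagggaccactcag

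The element was in 7 of the 19 windows found for rising members of the ATF4 and tRNA synthetase lists (36.8%: Aars, Asns, Chac1, Gars, Iars, Tars and Yars) and in 4 of the 24 found for other tested members (16.7%), against 2.78% of the 10103 tested genes with a window and 3.95% of all 32851 windows. These are matches of letters, and binding was not measured.

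Of 33 tested ATF4 targets and amino acid genes 13 rose (39.4%) and 3 fell (9.09%), against 3.01% and 6.15% of all genes. The median was 0.17. Asns, which makes asparagine from aspartate and glutamine, was at 8.25, 8.47 and 8.66 in EncT and 9.46, 9.49 and 9.55 in Treg (2.05-fold, SE 0.0968 on the log2 scale, adjusted p = 0.00129). Slc7a5, the transporter of large neutral amino acids, read 6.97, 7.49 and 7.27 against 8.33, 8.44 and 8.48 (2.25-fold, adjusted p = 0.00208), and its partner chain Slc3a2 rose by 0.66. The groups were separate for Slc3a2 too, whereas for Asns and Slc7a5 separation was a condition of their choice. Atf4 itself rose from 9.07, 9.21 and 9.23 to 9.56, 9.75 and 9.76 (0.52, adjusted p = 0.00676). The serine pathway enzymes Phgdh (0.47) and Psat1 (0.44), the mitochondrial serine hydroxymethyltransferase Shmt2 (0.73), the arginine transporter Slc7a1 (0.48) and the proline pathway enzyme Aldh18a1 (0.47) rose as well. Chac1, which degrades glutathione, rose by 0.56 and Ppp1r15a, which restores translation by dephosphorylating eIF2 alpha, by 0.73.

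Not all of the list followed. The stress-induced death factor Ddit3 was level (-0.00, adjusted p = 0.992) and the pseudokinase Trib3 was at 0.38 (adjusted p = 0.179). Ddit4, an inhibitor of mTORC1 that responds to oxygen as well as ATF4, fell from 11.96, 11.43 and 11.29 to 10.56, 10.87 and 10.77 (adjusted p = 0.0166). Cebpg (-0.33) fell, as did the glutamine transporter Slc38a2 (-0.39) on its brightest probe set, with both of its other probe sets not called. The 13 rises were 15 without EncT replicate 2, 9 without Treg replicate 1, 8 without Treg replicate 3 and 5 without Treg replicate 2.

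The enzymes that load amino acids onto tRNA moved the same way: 11 of 21 tested rose (52.4%, against 3.01% of all genes) and 0 fell. The median was 0.29. Nars, for asparagine, was at 9.36, 9.42 and 9.49 in EncT and 9.96, 9.96 and 10.06 in Treg (1.48-fold, adjusted p = 0.00204). Cars, for cysteine, read 6.43, 6.89 and 6.82 against 7.43, 7.58 and 7.49 (0.79, adjusted p = 0.00904), and Mars1 (0.68) and Yars (0.67), for methionine and tyrosine, rose by similar amounts. Wars, for tryptophan, was at 0.29 and did not pass, with an adjusted p of 0.0458 with the replicate block and of 0.00601 to 0.264 over all alternatives. The number of rises was 7 without Treg replicate 1, 3 without Treg replicate 3 and 1 without Treg replicate 2.

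Ribosome biogenesis genes rose in part, 16 of 52 tested (30.8%, against 3.01% of all genes) with 0 falls and a median of 0.26. With the replicate block 26 rose. Nop56, a core protein of the particles that methylate ribosomal RNA, went from 9.61, 9.79 and 9.79 to 10.08, 10.17 and 10.26 (0.44, adjusted p = 0.00907), its partner Nop58 rose by 0.49 and the nucleolar chaperone Nolc1 by 0.53, the last with 2 other probe sets not called. Gart, an enzyme of purine synthesis, rose by 0.54. Ncl (0.18) and Fbl (0.20) did not pass, with adjusted p of 0.0468 and 0.0398 with the block and of 0.00451 to 0.199 and 0.0398 to 0.314 over all alternatives. Myc, the factor that drives this programme in growing lymphocytes, was on the opposite side, at 8.46, 8.69 and 8.68 in EncT and 8.19, 8.32 and 8.47 in Treg (-0.28, adjusted p = 0.0868, 0.0295 with the block and 0.00703 to 0.251 over all alternatives). The rises numbered 30 without EncT replicate 2, 6 without EncT replicate 3, 4 without Treg replicate 1 and 0 without Treg replicate 2 or 3. Ribosomal protein genes themselves were near 0 (1 fall among 21, median -0.02).

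DNA replication genes rose in 22 of 52 tested (42.3%, against 3.01% of all genes) with 0 falls. All 52 differences were above 0 (median 0.32). The polymerase delta catalytic subunit Pold1 was at 9.17, 9.52 and 9.46 in EncT and 9.95, 10.01 and 9.99 in Treg (1.52-fold, adjusted p = 0.00724). Tyms, which makes thymidylate, read 7.01, 7.09 and 6.99 against 7.48, 7.72 and 7.68 (0.59, adjusted p = 0.00724), and Pola1, of the primase complex, rose by 0.54. The helicase subunit Mcm5 (0.40) and the sliding clamp Pcna (0.28) rose by less. Within EncT, replicate 2 lay closest to Treg, as for Pold1, and replicate 1 farthest, and the mean over the 52 members was 9.17, 9.49 and 9.33 on the EncT arrays against 9.59, 9.69 and 9.67 on the Treg arrays. Mcm2 (0.29) and Rrm2 (0.27) did not pass, with adjusted p of 0.0390 and 0.0197 with the replicate block and of 0.00447 to 0.247 and 0.0176 to 0.378 over all alternatives. The block called 42 members. Without EncT replicate 2 the count was 47, and it was 3 without EncT replicate 3, 3 without Treg replicate 1, 0 without Treg replicate 2 and 2 without Treg replicate 3.

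Mitosis and spindle genes followed at smaller size, with 12 rises (24%) and 1 fall (2%) among 50 tested, against 3.01% and 6.15% of all genes. The median was 0.26, and 29 rose with the block. Kif20a, a kinesin of the central spindle, was at 8.81, 9.15 and 8.82 in EncT and 9.31, 9.33 and 9.44 in Treg (0.43, adjusted p = 0.0268), and Ndc80, of the outer kinetochore, rose by 0.42 (adjusted p = 0.0118). Anln, a scaffold of the cleavage furrow, was the fall (-0.22). The proliferation marker Mki67 was at 11.51, 11.02 and 11.61 against 11.65, 11.77 and 11.74 and did not pass (adjusted p = 0.126). Of 23 G1 cyclins, kinases and inhibitors 0 rose and 4 fell (17.4%). These were the D cyclins Ccnd2 (-0.29) and Ccnd3 (-0.39), the kinase inhibitor Cdkn1b (-0.55) and the cyclin-like Ccng2. Cdkn1a, which encodes p21, was at -0.31 and did not pass (adjusted p = 0.0273 with the block, 0.0122 to 0.419 over all alternatives). The G1 falls were 0 without Treg replicate 2, 1 without Treg replicate 3 and 2 without EncT replicate 3, and 4 members rose without EncT replicate 2. Mitotic rises numbered 35 without EncT replicate 2, 3 without EncT replicate 3 or Treg replicate 1, and 0 without Treg replicate 2 or 3.

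Genes of glycolysis and of the response to low oxygen were among the falls in Treg. HIF-1, made of an oxygen-regulated alpha subunit and a constant partner, binds a response element with the core ACGTG and drives glucose uptake, glycolysis and lactate export. Windows of 2 falling members are shown with that core, on either strand, in capitals. Slc16a3 lies on the plus strand at chr11:120948817-120949116 with cores 27 and 14 bases before the start, and P4ha1 on the plus strand at chr10:59323046-59323345 with 1 core in reverse orientation 16 bases before it.
Slc16a3: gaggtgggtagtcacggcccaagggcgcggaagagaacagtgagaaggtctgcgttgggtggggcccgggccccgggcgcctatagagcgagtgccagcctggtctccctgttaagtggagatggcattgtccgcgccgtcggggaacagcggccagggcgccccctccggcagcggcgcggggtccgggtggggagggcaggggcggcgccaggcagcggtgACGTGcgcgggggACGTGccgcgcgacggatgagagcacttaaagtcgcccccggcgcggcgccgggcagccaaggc
P4ha1: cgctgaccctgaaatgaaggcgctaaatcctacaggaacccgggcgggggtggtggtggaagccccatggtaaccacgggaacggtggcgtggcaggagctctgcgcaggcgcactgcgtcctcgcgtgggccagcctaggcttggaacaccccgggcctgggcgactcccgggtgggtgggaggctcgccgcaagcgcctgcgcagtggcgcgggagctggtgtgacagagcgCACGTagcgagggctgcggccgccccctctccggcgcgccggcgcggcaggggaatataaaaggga

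The core was in 9 of the 13 windows found for falling members of the glycolysis and hypoxia lists (69.2%) and in 28 of the 39 found for other tested members (71.8%), 1 of which, Slc16a1, rose. It was in 28.6% of tested genes with a window and 19.6% of all windows, and part of these matches belong to CACGTG, the E-box read by Myc and other factors (11.3% and 7.15%).

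Of 37 tested hypoxia response genes 0 rose and 10 fell (27%, against 6.15% of all genes). The median of -0.49 was the lowest of the 33 pathway lists. Bnip3, which targets mitochondria for removal, was at 10.30, 8.67 and 9.38 in EncT and 8.24, 7.83 and 8.06 in Treg (2.65-fold lower, SE 0.330 on the log2 scale, adjusted p = 0.0331). Pdk1, which keeps pyruvate out of mitochondria, read 10.12, 9.16 and 9.57 against 8.72, 8.40 and 8.60 (-1.04, adjusted p = 0.0191). The groups did not overlap in either gene, which for Bnip3 was a condition of its choice. In both genes EncT replicate 1 exceeded EncT replicate 2 by more than replicate 2 exceeded the highest Treg array. The oxygen-sensing prolyl hydroxylases Egln3 (-0.68) and Egln1 (-0.75), the collagen prolyl hydroxylase P4ha1 (-0.85) and the HIF feedback inhibitor Cited2 (-0.97) also fell. Hif1a itself was at 0.13 (adjusted p = 0.0920) and Vegfa at -0.09 (adjusted p = 0.602). A dimmer probe set of Hif1a was called higher in Treg (0.657, limma adjusted p = 0.0333 over probe sets).

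Glycolytic enzymes and transporters gave 6 falls (25%) and 1 rise (4.17%) of 24 tested, against 6.15% and 3.01% of all genes (median -0.36). Tpi1, the triose phosphate isomerase, was at 12.54, 11.60 and 12.03 in EncT and 11.31, 11.15 and 11.31 in Treg (-0.80, adjusted p = 0.0343), and its 2 other probe sets were called the same way. Aldolase C fell most, with Aldoc at 9.26, 7.05 and 7.87 against 6.62, 5.84 and 6.29 (adjusted p = 0.0433), and Aldoa (-0.58), the phosphofructokinase Pfkl (-0.86) and the glucose transporter Slc2a3 (-0.96) fell too. Slc16a3, the lactate exporter, fell from 8.55, 7.72 and 7.92 to 6.86, 6.59 and 6.72 (adjusted p = 0.00667). The related monocarboxylate carrier Slc16a1 rose by 0.32. Slc2a1, the main glucose transporter of activated T cells, was at 10.62, 9.45 and 9.79 against 9.37, 9.05 and 9.23 and did not pass (-0.73, adjusted p = 0.0177 with the block and 0.00658 to 0.279 over all alternatives). A dimmer probe set of Slc2a1 was called lower (-0.755, limma adjusted p = 0.0486 over probe sets). Pkm did not pass either (adjusted p = 0.0308 with the block and 0.0116 to 0.263 over all alternatives). Hk2 (-0.53) and Ldha (-0.15) did not pass.

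Both lists varied among the EncT arrays. The mean over hypoxia members was 8.63, 7.93 and 8.16 on the EncT arrays against 7.76, 7.70 and 7.72 on the Treg arrays, and that over glycolysis members 9.46, 8.89 and 9.08 against 8.70, 8.59 and 8.69. EncT replicate 1 was the highest in both and lowest for replication and tRNA synthetase genes. Without EncT replicate 1, hypoxia falls numbered 12 with a median of -0.23 and glycolysis falls 9 with a median of -0.26; without EncT replicate 2 they numbered 24 and 17. They were 4 and 2 without EncT replicate 3, 4 and 1 without Treg replicate 1, 1 and 0 without Treg replicate 2, 1 and 1 without Treg replicate 3, and 17 and 11 with the block.

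**Figure D3:**
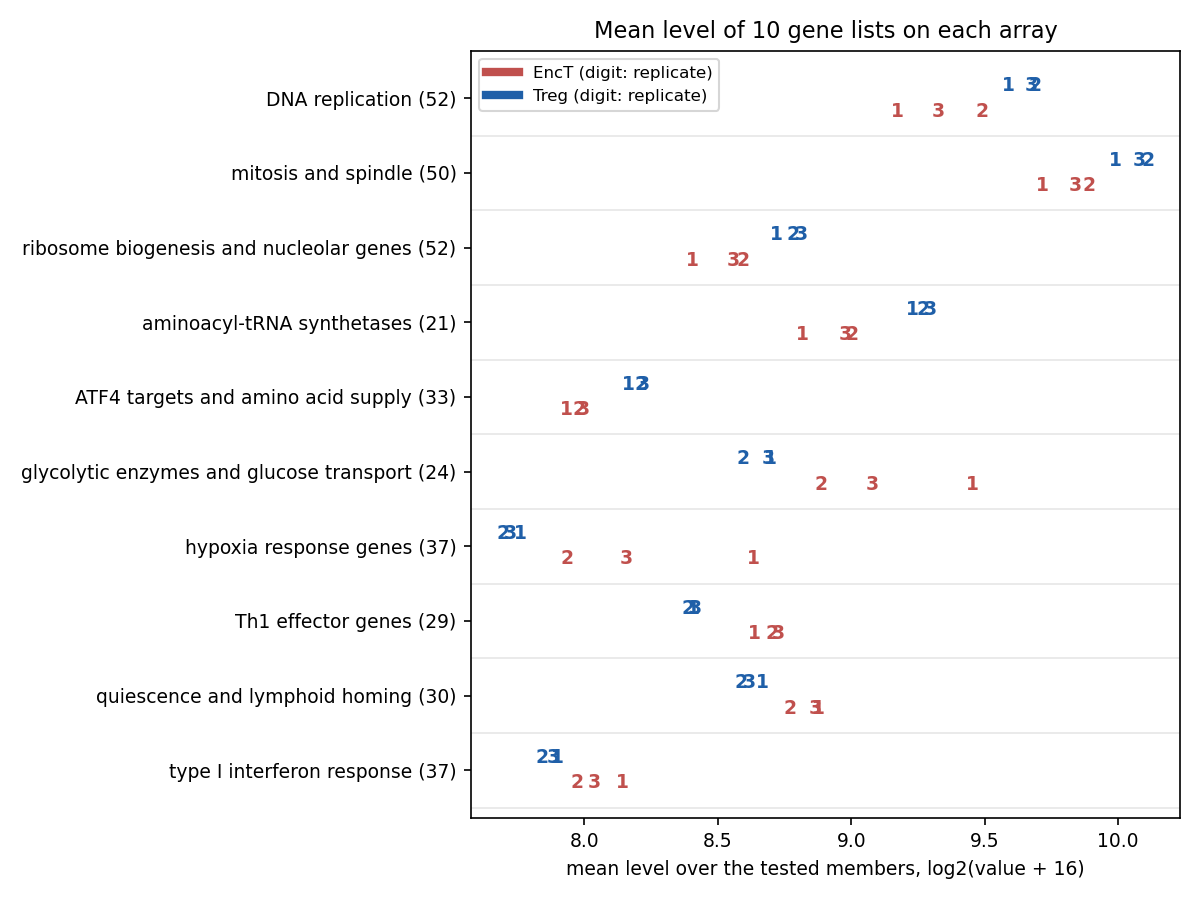
Mean level, log2(value + 16), over the tested members of 10 gene lists (number in brackets) on each array, the digit giving the replicate and the colour the group. Treg replicates sit close together, and EncT replicate 1 lies farthest from Treg and EncT replicate 2 nearest for DNA replication, glycolysis and hypoxia (8.63 and 7.93 in EncT replicates 1 and 2 for hypoxia).

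Effector genes of disease-driving T cells were also among the falls. Of 29 tested Th1 effector genes 0 rose and 9 fell (31%, against 6.15% of all genes), with a median of -0.28. Csf2, which encodes GM-CSF, was at 6.62, 6.09 and 5.86 in EncT and 5.19, 5.22 and 5.16 in Treg (-1.0, adjusted p = 0.0124). Tnf read 7.70, 7.14 and 6.97 against 6.14, 6.40 and 6.30 (-0.99, adjusted p = 0.0128), and the death ligand Fasl 8.30, 8.5 and 8.46 against 7.68, 7.60 and 7.63 (-0.78, adjusted p = 0.00129). All EncT arrays exceeded all Treg arrays for each. Groups were separate, in either direction, in 33.5% of all genes. Tbx21, the Th1 master factor T-bet, fell by 0.35, Il18rap, a chain of the interleukin 18 receptor, by 0.89, and Il12rb2, of the interleukin 12 receptor, by 0.54. Ifng was at 8.16, 8.10 and 7.88 against 7.88, 7.88 and 7.76 and did not pass (-0.20, adjusted p = 0.171). The falls were 13 without EncT replicate 2, 5 without EncT replicate 3, 3 without Treg replicate 1, 1 without Treg replicate 2 and 4 without Treg replicate 3.

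Of 15 tested Th17 and Th2 effector genes 4 fell (26.7%, against 6.15% of all genes) and 0 rose. The falls were 1 without Treg replicate 1 and 0 without EncT replicate 3, Treg replicate 2 or Treg replicate 3. The Th2 cytokine genes Il13 (-0.62) and Il5 (-0.52) fell, while Il17a, at 6.84, 7.99 and 6.49 in EncT and 7.09, 7.45 and 6.93 in Treg, overlapped (adjusted p = 0.942) and Gata3 was level (0.06). Stat3 fell by 0.24 on its brightest probe set, but a second set was called in the opposite direction. Among 35 cytokine receptors and SOCS inhibitors 8 fell (22.9%, against 6.15% of all genes) and 0 rose, and 13 fell with the block. Socs1, the main brake on interferon signalling, was at 6.61, 6.87 and 6.52 against 6.01, 5.84 and 5.80 (adjusted p = 0.00762). The interleukin 10 receptor Il10ra was at -0.67. Of 22 genes of the TNF receptor superfamily and its ligands 0 rose and 4 fell (18.2%), all 4 of them ligands. Tnfsf9, which encodes 4-1BB ligand, was the largest, at 7.89, 7.31 and 7.54 against 6.37, 6.33 and 6.44 (2.30-fold lower, adjusted p = 0.00340). Granzymes and granule genes showed 2 falls of 20 (10%, against 6.15% of all genes), Gzmk (-0.49) and Fasl. Gzmb spanned 9.04 to 10.93 within EncT and did not pass. Falls in the cytokine receptor list were 12 without EncT replicate 2, 5 without EncT replicate 3, 3 without Treg replicate 1, 0 without Treg replicate 2 and 2 without Treg replicate 3, and those in the TNF list ran from 2 without Treg replicate 2 or 3 to 6 without EncT replicate 2.

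Quiescence and lymphoid homing genes had the largest share of falls among the 33 pathway lists, 13 of 30 tested (43.3%, against 6.15% of all genes). They had 2 rises (6.67%, against 3.01%) and a median of -0.27. Il7r, the interleukin 7 receptor of resting and memory T cells, was at 11.43, 11.33 and 11.38 in EncT and 11.08, 11.02 and 10.88 in Treg (-0.39, adjusted p = 0.00910). Txnip, which limits glucose uptake, read 11.26, 11.25 and 11.45 against 10.83, 10.74 and 10.76 (adjusted p = 0.00385). The GTPase Gimap3 (-0.48), the antiproliferative Tob1 (-0.53), the growth regulator Slfn1 (-0.50) and S1pr1 (-0.36), the receptor for exit from lymph nodes, fell as well. Ccr7, which guides T cells into lymph nodes, went the other way, from 7.0, 7.15 and 6.88 to 7.49, 7.5 and 7.46 (0.47, adjusted p = 0.0156), and so did Tsc22d3, the glucocorticoid-induced leucine zipper (0.55). The falls numbered 4 without EncT replicate 3, 4 without Treg replicate 1, 1 without Treg replicate 2 and 2 without Treg replicate 3.

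Genes of recent stimulation split. Of 34 immediate early factors and phosphatases 4 rose (Fos, Dusp1, Csrnp1 and Egr1) and 4 fell (Ier3, Btg2, Jund and Fosl2). Each share was 11.8%, against 3.01% and 6.15% of all genes. Dusp1 was at 7.78, 7.73 and 7.74 in EncT and 8.78, 8.63 and 8.61 in Treg (adjusted p = 0.000377), while Btg2, an antiproliferative p53 target, fell from 10.86, 10.04 and 10.40 to 9.32, 9.02 and 9.10 (-1.29, adjusted p = 0.00648). Egr1 was near the threshold (0.52, adjusted p = 0.0479), and Jun, the partner of Fos, was at 0.55 (adjusted p = 0.0859). With the block the counts were 7 and 9. Among 25 NF-kappaB factors, inhibitors and targets 1 rose (4%) and 5 fell (20%). The rise was the feedback inhibitor Tnfaip3 (A20), from 9.26, 8.78 and 8.76 to 9.90, 9.77 and 9.76 (1.84-fold, adjusted p = 0.00667), and the falls included the nuclear cofactor Bcl3 (-0.52). Nfkbia was level (0.02). Without EncT replicate 3 or any 1 Treg array the early factor list had 2 rises and 1 to 3 falls and the NF-kappaB list 0 or 1 of either.

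Some interferon-response genes fell. Of 37 tested type I response genes 0 rose and 6 fell (16.2%, against 6.15% of all genes), with a median of -0.19. The falls were led by Parp14 (-0.51) and by Irf9, the DNA-binding subunit of the type I signalling complex. Irf9 was at 8.55, 8.23 and 8.16 against 7.94, 7.70 and 7.61 (adjusted p = 0.0250). The antiviral oligoadenylate synthetase Oas3 fell by 0.53, and the regulator Irf7 (-0.30) did not pass (adjusted p = 0.0476 with the block and 0.00803 to 0.303 over all alternatives). Of 22 interferon gamma response genes 3 fell (13.6%) and 1 rose (4.55%, against 3.01% of all genes). The median was -0.23, and 8 fell with the block. Irf1, a primary target of interferon gamma, went from 10.29, 9.88 and 9.99 to 9.44, 9.47 and 9.46 (-0.60, adjusted p = 0.00948), and the GTPase Irgm2 from 8.80, 8.05 and 8.25 to 7.43, 7.30 and 7.29 (-1.02, adjusted p = 0.00961). Cxcl10, an interferon-inducible chemokine that attracts Cxcr3-positive cells, was the rise. The type I falls numbered 13 without EncT replicate 2, 4 without EncT replicate 1, 1 without EncT replicate 3, 2 without Treg replicate 1 and 0 without Treg replicate 2 or 3. Interferon gamma falls numbered 13 without EncT replicate 2, 2 without Treg replicate 1 and 0 without Treg replicate 2 or 3. MHC class I loading genes showed 0 calls among 16.

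Chemokines and their receptors had 3 rises (Cxcl10, Ccl2 and Ccr7) and 4 falls of 23 tested. These shares were 13% and 17.4%, against 3.01% and 6.15% of all genes. The falls were Cxcr6 (12.20, 12.12 and 12.23 against 11.86, 11.82 and 11.87, adjusted p = 0.00667), Cxcr4 (-0.26), Ccr1 and Ccl22. Ccl5, a T cell and NK cell chemokine, was at 9.17, 7.80 and 8.70 against 7.57, 7.53 and 7.67 and did not pass (-0.96, adjusted p = 0.0228 with the block and 0.00047 to 0.198 over all alternatives). The chemokine Cxcl1, chosen after its values were seen, was not called on its brightest probe set (0.10), but a dimmer set read 4.72, 4.55 and 4.54 in EncT and 7.20, 7.13 and 7.49 in Treg (2.67, adjusted p = 1.53e-05 over probe sets), and with the mean of probe sets the list had 4 rises and 3 falls. Of 741 uncalled members of all lists, 55 had another probe set that was called, 4 of them by at least 1 log2 unit. Conversely, of 226 called genes that were named or in a list, 125 had another kept probe set. In 46 of these all other sets were called the same way, and in 79 at least 1 was not called. The chemokine rises were 5 without EncT replicate 2, 2 without EncT replicate 1 and 1 without any other array, and the falls ran from 0 without Treg replicate 2 to 6 without EncT replicate 1. Integrin, adhesion and migration genes had 6 falls (21.4%) and 0 rises of 28. The falls included the oxysterol receptor Gpr183 (-0.52) and the integrin chain Itgb3 (-0.77). The T cell receptor list had 5 falls (12.8%) and 0 rises of 39 (median -0.11), the largest in the T lineage factor Bcl11b (-0.28). Those 5 falls were 8, with 2 rises, without EncT replicate 2, and 0 without EncT replicate 3, without any 1 Treg array or with no intensity trend, and the integrin list had 9 falls without EncT replicate 2, 2 without EncT replicate 3, 1 without Treg replicate 1 and 0 without Treg replicate 2 or 3.

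The other pathway lists had few calls. Endoplasmic reticulum chaperones and degradation genes had 2 rises and 2 falls of 34 (5.88% each, against 3.01% and 6.15% of all genes). The chaperone Hspa5 (BiP) rose from 11.05, 10.90 and 10.95 to 11.42, 11.36 and 11.30. The stress sensor Ern1 fell by 1.12 on its brightest probe set, with 3 other sets not called. Cholesterol and fatty acid genes had 4 falls of 32 (12.5%, against 6.15% of all genes), including the feedback protein Insig1 (-0.40), and 7 with the block. Of their 32 differences 27 were below 0. BCL2 family and p53 target genes had 5 falls (15.2%) and 1 rise of 33, with the death-promoting Bbc3 (-0.73) among the falls. Replication-dependent histones had 1 rise and 1 fall of 7, and heat shock and chaperonin genes had 0 calls among 25. Without Treg replicate 2 the cholesterol and BCL2 falls were both 0, and without EncT replicate 2 they were 6 and 7.

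**Figure D4:**
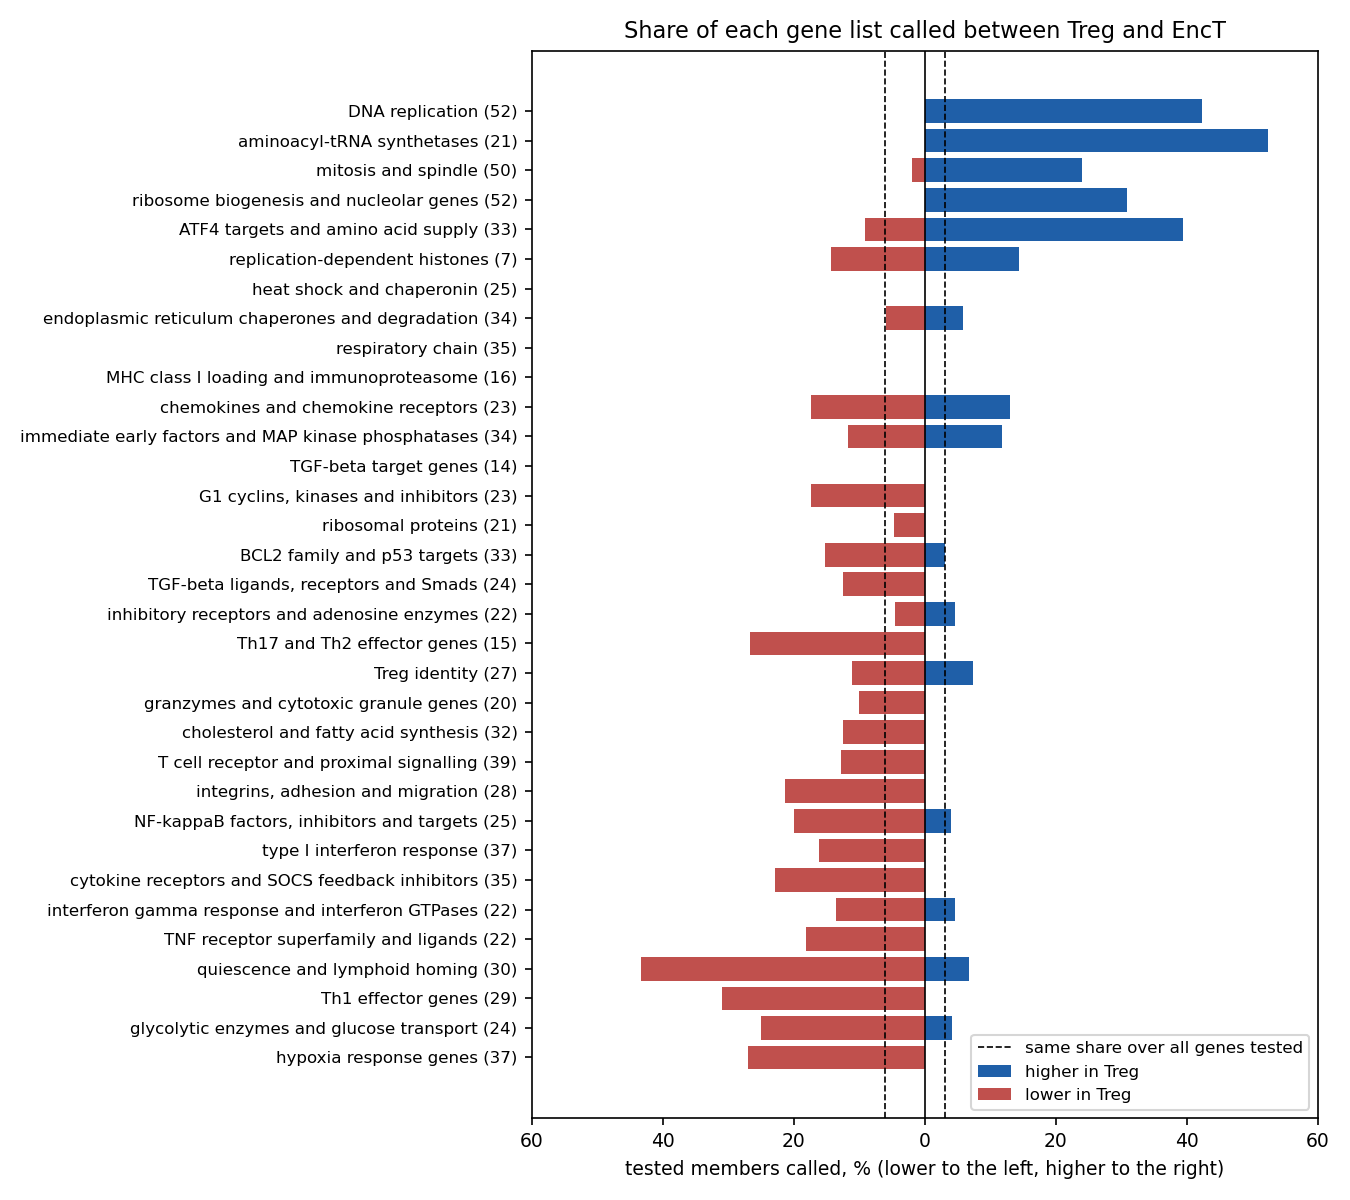
Share of the tested members (number in brackets) of each of 33 pathway lists called higher (right) and lower (left) in Treg, in percent, ordered by median difference, with the shares over all 12493 genes (3.01% and 6.15%) dashed. Replication, tRNA synthetase, mitosis, ribosome biogenesis and ATF4 lists extend to the right, and quiescence, Th1, hypoxia and glycolysis lists to the left.

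Markers of other cells were read on the same arrays, as a summed linear signal over each list. The macrophage, microglia and monocyte list had 7 falls (30.4%, against 6.15% of all genes) and 0 rises among 23 tested of 41 measured. With the upper 40% of probe sets kept, 6 members were tested and 0 fell, so the 7 falls were in dim genes. The list sum was 2840 to 4230 in EncT and 2660 to 3000 in Treg. Lyz2, macrophage lysozyme, was at 6.29, 5.63 and 5.35 in EncT and 4.82, 4.41 and 4.30 in Treg (-1.25, adjusted p = 0.0159). All 3 Treg values lay under the filter level, so Lyz2 was tested only through its EncT values, and in 13 of 18 alternatives. The defining markers Cd68 (-0.06), Csf1r (-0.14) and Adgre1 (-0.06) did not pass and Aif1 was below the filter. The list of dendritic cell and class II MHC genes had 6 falls (35.3%) and 0 rises of 17, with sums of 3330 to 3730 and 3030 to 3140. The invariant chain Cd74 was at 8.20, 8.37 and 8.08 against 7.5, 7.17 and 7.14 (adjusted p = 0.00464) and H2-Aa at -0.65. Itgax, Flt3 and Ciita were below the filter. Neutrophil, mast cell and erythroid markers had 1 fall of 8, Hbb-b2, with 4 differences above 0 and 4 below (median -0.05). Their sums, 1210 to 2020 against 594 to 765, include Hbb-b2 and the mast cell gene Cpa3, which was high on EncT replicate 1. S100a8 and S100a9 were below the filter and Hba-a1, an alpha globin gene, was level at 0.05. Leaving out 1 array gave 2 (Treg replicate 2) to 7 macrophage falls and 1 (EncT replicate 3 or Treg replicate 2) to 6 dendritic cell falls. The part of these cells in the falls above was not tested.

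Choroid plexus markers had 1 rise of 8 tested and 0 falls, Ttr itself. Folr1 (0.06) and Clic6 (0.22) did not pass, Kl and Kcnj13 were below the filter, and the median difference was 0.07. The list sum was 447 to 514 in EncT and 676 to 865 in Treg. That sum includes Ttr, so it does not show a rise of the other markers. Among neuronal markers 0 of 23 were called (sums 1750 to 2040 and 2060 to 2180), but 6 rose without EncT replicate 2, 2 without EncT replicate 1 and 1 without EncT replicate 3. Tubb3 was at 0.34, Map2 at 0.42 (adjusted p = 0.0673) and Snap25 below the filter. Astrocyte and oligodendrocyte markers had 3 falls of 16 (18.8%, against 6.15% of all genes), with sums of 5120 to 5650 and 4650 to 4770. Aldoc (-1.81), described above with glycolysis, was 1 of the falls. Mbp, which lymphoid cells also transcribe, fell by 0.25 with 5 other probe sets not called. Gfap was at 0.13, and Aqp4 and Slc1a3 were below the filter. B cell markers had 1 fall of 10 (10%), with sums of 674 to 733 and 493 to 556. Ms4a1 was at -0.47, and Cd79a and Cd79b were below the filter. CD8 T and NK markers had 2 falls of 11 (18.2%), with sums of 3920 to 4460 and 3490 to 3710. Cd8a was at 0.07, Cd8b1 at -0.05 and Ncr1 below the filter. Fibroblast, meningeal and endothelial markers had 0 calls among 14 (16300 to 18000 and 17700 to 17900), with Col1a1 at -0.10.

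A direct test asked which genes set Treg apart from nFoxA1Treg, on their 6 arrays alone. Of 12515 genes limma called 1 (0.00799%), and 811 had an unadjusted p under 0.05. That gene was Ttr, at 4.39, 4.63 and 4.58 on the nFoxA1Treg arrays and 3.70 higher in Treg (SE 0.145, adjusted p = 8.70e-07), and the next smallest adjusted p was 0.313. Cxcl10 was at 4.81, 5.63 and 5.67 in nFoxA1Treg, 1.13 below Treg (adjusted p = 0.485), and Mmp3 at 4.61, 4.99 and 5.01 (adjusted p = 0.498). Fos, at 7.19, 7.40 and 6.86, and Dtl, at 9.91, 9.86 and 9.27, differed from Treg by -0.07 and -0.06 (Treg minus nFoxA1Treg). Itgae was at 6.01, 5.97 and 8.53 and Cd74 at 5.72, 6.16 and 7.10, so nFoxA1Treg replicate 3 lay apart from the other two. Without that array the count was 368, 247 of them higher in Treg, and with array weights it was 18.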

How the data were processed

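The deposited table holds log2 values for 45037 probe sets, made by the authors from one-cycle 3′ amplified, biotin-labelled RNA per the labels' protocols; the submitters' processing notes name PLIER, a probe summary method, and its version, and whether the authors normalized the arrays, were not given in the sources used here. Deposited array medians were 4.795 to 4.844. From these, log2(value + 16) was quantile normalized over the 6 arrays, the upper 60% of probe sets by mean were kept, and each gene took its brightest probe set with 1 symbol (34945 probe sets had 1 gene, 932 several, 9160 none; 34741 matched the reference). Limma 3.58.1 in R 4.3.3 (lmFit, eBayes with an intensity trend, 4 residual degrees of freedom) gave two-sided p-values, adjusted by Benjamini-Hochberg. The number of arrays limits the precision, and 3 against 3 cannot go below 0.1 in an exact permutation test. The fit was tested on simulated data.

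Groups were taken from titles. Members and gene lists were chosen with earlier results of these data known, and lists are described by counts and medians without a test. The 42 lists (33 pathway, 9 marker) held 1288 genes, of which 1159 had a probe set. Named genes were the 12 largest rises and 12 largest falls, up to 6 called members per list by adjusted p, key members, and Foxa1, Xist and Eif2s3y; Zic1, Tubb2b, Il10 and Cxcl1 were chosen after their values were seen. Same-numbered EncT and Treg arrays deviated together from their group means (correlations 0.219, 0.190 and 0.133 across genes), so a block on the replicate number taken from the titles was fitted as an alternative. The other alternatives changed the offset, normalization, filter, probe set rule, fit and arrays.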

Additional observations from a re-analysis of the deposited data

How the results depend on the processing

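With 3 arrays a group, the number of calls between Treg and EncT moved more than the differences did. It was 3813 with array weights (1615 higher and 2198 lower), 1811 with 9 arrays in the fit (682 higher), 2248 with all 12 (857 higher and 1391 lower) and 1660 with the replicate block (629 higher); without an intensity trend 223 genes were higher. Leaving out 1 array at a time gave 71 to 2406 calls, 22 to 1065 higher and 49 to 1341 lower. Those fits have fewer arrays, and beyond that the cause was not tested. Of 129 called genes named in the text, 27 lost their call in no alternative that tested them. Genes below the filter in an alternative were not tested there: Mmp3 was tested in 11 of 18 alternatives, Mmp12 and Clec4e in 13 and Nrep in 16. The 129 and the 27 include Zic1 and Tubb2b, called only without the filter or with other settings. Tubb2b is counted although its limma adjusted p reached 0.07 in an alternative. Of the 129, 127 never changed sign. The exceptions, Stat3 (0.145) and Slc38a2 (0.022), changed sign with the mean of all kept probe sets, as did the uncalled Il2ra (0.129), Tgfb1 (0.095) and Tgfbr1 (0.085). With that mean 14 named genes kept their sign but lost their call. They were Tgfbr2, Acvr1b, Ikzf4, Jund, Fosl2, Egr1, Ccr1, Cdkn1b, Pfkl, Egln1, Cebpg, Aldoc, Ern1 and Mbp. With array weights Tgfb1 was at 0.016, Cd3e at 0.02 and Cd8a at -0.012. The replicate block ended no call of a gene named in the text, and calls that it added stand beside the genes.

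Some uncalled differences crossed 0 when 1 array was left out: Il2ra ran from -0.327 to 0.041, Tgfb1 from -0.13 to 0.132, Tgfbr1 from -0.066 to 0.007, Smad7 from -0.032 to 0.339, Pdcd1 from -0.09 to 0.333, Il17a from -0.258 to 0.494, Gata3 from -0.071 to 0.179, Cd3e from -0.177 to 0.025, Nfkbia from -0.082 to 0.137, Ddit3 from -0.041 to 0.049, Gzmb from -0.907 to 0.035, Gzma from -0.074 to 0.981, Folr1 from -0.068 to 0.174, Cd68 from -0.185 to 0.016, Csf1r from -0.339 to 0.04, Cd8a from -0.048 to 0.132, Cd8b1 from -0.247 to 0.09 and Hba-a1 from -0.016 to 0.15. Between Treg and nFoxA1Treg there were 3 calls without the filter, 2 with the mean of probe sets, 18 with array weights, 3 with all 12 arrays and 1 with the replicate block; leaving out 1 array gave 1 to 368.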

Other observations

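Among neuronal genes below the filter, 2 were chosen after their values were seen. Zic1, a zinc finger factor of cerebellar and meningeal cells, was at 4.28, 4.05 and 4.25 in EncT and 5.74, 5.71 and 6.15 in Treg. Its difference was 1.67 in the limma fit without the filter (adjusted p = 0.000519). Tubb2b, a tubulin of young neurons, was 1.01 higher in Treg in that fit (adjusted p = 0.0239). Without the filter 3 of 35 neuronal markers were called higher, beside 308 of all 18193 genes. The nFoxA1Treg arrays held Zic1 at 4.63, 5.53 and 5.59.

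In several genes that were not called, 1 EncT array differed from the other two. Cpa3, the mast cell carboxypeptidase, was at 9.49 on EncT replicate 1 against 6.60 and 5.81 on the others (5.97, 4.91 and 5.22 in Treg), and did not pass (adjusted p = 0.0285 with the replicate block and up to 0.363 over the other alternatives). The T cell granzyme Gzma was at 10.01 on that array against 12.03 and 12.12, and at 12.06, 11.97 and 11.97 in Treg. EncT replicate 2 held the highest EncT values of Itgae (9.10) and Il17a (7.99). Il10, a suppressive cytokine chosen after its values were seen, was at 5.25, 6.42 and 6.05 in EncT and 6.92, 6.91 and 6.52 in Treg, without overlap, and did not pass (0.87, adjusted p = 0.0666, 0.0361 with the block and 0.00498 to 0.218 over all alternatives).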
